A study of Adonis amurensis with 6 samples.

Results

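The comparison set the coloured bud of Adonis amurensis against the flower that had begun to open, that is, the visible color alabastrum (VCA) against the early flowering stage (EFS). The features were Arabidopsis loci. The FPKM of all unigenes whose KOG match began with the same At-number were summed, and a locus was kept where this sum reached 5 or more in VCA or EFS. This left 8075 of the 11934 loci matched in the table, and 6743 of the 8075 carried a Swiss-Prot name. The threshold fell between At3g21300, with a sum of 5.0 in VCA and 2.85 in EFS, and At4g22780, which stood at 4.99 in EFS, was listed at 0 in VCA and was left out.

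All libraries came from floral organs of A. amurensis grown in an open field in northeast China, taken at the same time from buds and flowers of different age, with no treatment named. Young alabastrum (YA) and VCA were labelled flower bud, and EFS, the full bloom stage FBS and the senescing flower stage SFS were labelled flower. Each stage was 1 library, and how many plants it held is not given in the sources used here. No genotype, strain or plant age is given either. The library of flower bud differentiation was not used. With 1 library a stage there was no replicate error and no test, so a locus is called higher or lower only by the size of its ratio in these libraries. A change was called at 2-fold or more in the ratio of the sums after 0.1 was added, and all log2 ratios below are of EFS to VCA on this scale unless another pair is named. The added 0.1 makes the ratio of a low locus smaller than that of its sums. A value of 0 means that the table lists the locus at 0 in that library.

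Flower opening is growth without much division. Petal cells take up water, their walls loosen through expansins, xyloglucan endotransglucosylases and pectin enzymes, and starch is broken down to sugars that draw the water in. In the same period anthers ripen and release pollen, petals lose chlorophyll and fill with carotenoids or anthocyanins, and scent compounds are made. Histones and replication proteins are in contrast made mainly in dividing cells, and ribosomal proteins mainly in growing ones.

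From VCA to EFS, 677 loci (8.38%) were 2-fold or more higher, 1369 (17.0%) were 2-fold or more lower, and the other 6029 lay within 2-fold. These shares are the background for the counts of every gene list below. The median log2 ratio was -0.28, and leaving out the lowest and the highest 10% of loci the ratios ran from -1.28 to 0.86. Changes of 8-fold or more were found for 84 loci upward and 103 downward. The loci that rose were on the whole the more abundant in their higher library, with a median sum of 42.5 FPKM against 20.5 for those that fell. FPKM is a share of a library, and the split between rises and falls moved with the reference chosen. Rises made up 33.1% of the calls as deposited, 36.0% with equal totals, 50.6% with the median ratio set to 1 and 90.3% with the summed ribosomal proteins held equal. These scalings moved every log2 ratio up by 0.04, 0.23 and 0.98, so that under the last 2 a fall above -1.23 or above -1.98 was no longer called. List medians between -0.98 and 0 also turned positive under the last of them. Low unigenes gave a read depth of EFS 1.13 times that of VCA. In whole buds and flowers, fewer cells of a type and less RNA per cell cannot be told apart.

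**Figure D1:**
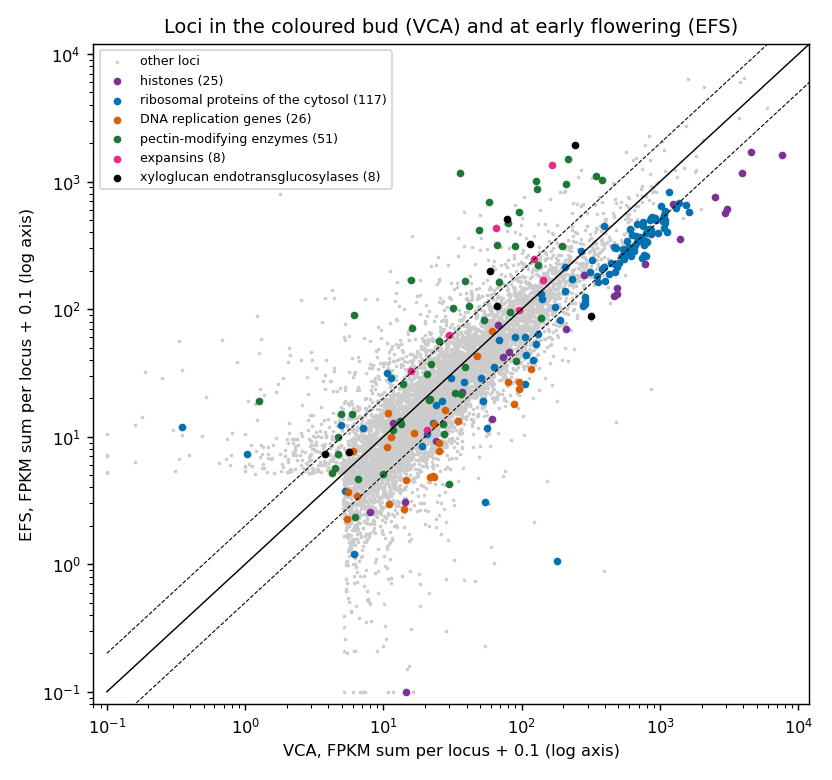
FPKM sum of each of the 8075 loci in VCA (x axis) and EFS (y axis), both after adding 0.1 and on log axes, with 6 gene lists in colour. The solid line marks equal sums and the dashed lines 2-fold. Histones and ribosomal proteins of the cytosol run along and below the lower dashed line at the high end, and the pectin, expansin and xyloglucan loci lie mostly above the solid line.

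The classes of the KOG database give the broad picture, since they cover all but 245 of the loci and were not picked. Of the 110 chromatin loci 49 fell and 2 rose, of the 186 loci of replication and repair 77 fell and 3 rose, and of the 383 loci of translation and ribosomes 107 fell and 7 rose. RNA processing stood at 67 falls and 4 rises of 324 loci, and the cell cycle at 45 falls and 8 rises of 164. The largest share of rises, 22.4%, was in the class of cell wall and membrane, with 48 rises and 29 falls among 214 loci. Defense loci moved in both directions, with 19.8% higher and 20.6% lower. Secondary metabolites had 17.6% higher and 16.8% lower, and extracellular structures 16.3% in each direction. Lipids had 12.1% higher and 13.5% lower, inorganic ions 11.6% and 14.2%, and signal transduction 11.2% and 16.1%. Carbohydrates had 10.4% higher and 12.5% lower, the class of general function 10.2% and 15.7%, and the cytoskeleton 8.5% and 19.0%. Over all loci these shares were 8.38% and 17.0%. By share, falls were thus most frequent in chromatin and replication, and rises in the wall class, in defense and in secondary metabolites.

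**Figure D2:**
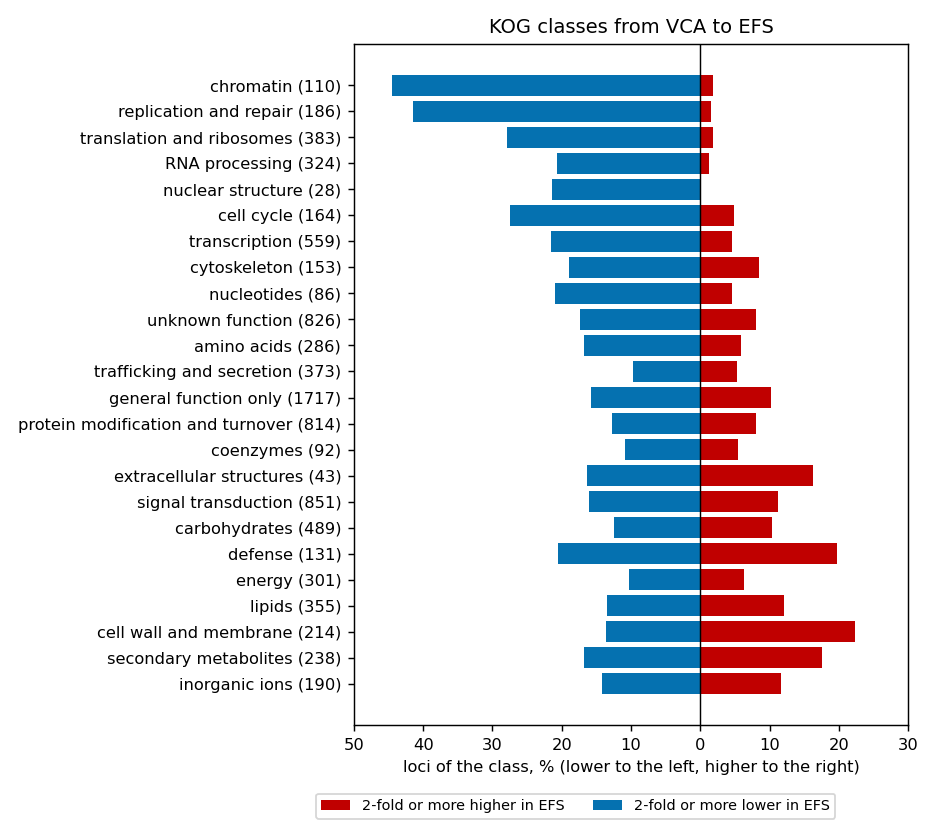
Share of loci 2-fold or more higher (red, to the right) and lower (blue, to the left) in EFS than in VCA for the 24 KOG classes with at least 20 loci, ordered by their median log2 ratio, with the number of loci in brackets. Chromatin and replication show falls of 44.5% and 41.4% and rises below 2%, and the wall class shows the longest bar of rises at 22.4%. With ribosomal proteins held equal most calls of the whole table became rises.

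Of the 4 lists of wall growth, those of expansins, xyloglucan endotransglucosylases and pectin enzymes had more rises than falls. The remaining list, of cellulose synthases and glucanases, which build and trim other wall glucans, had 10 rises (17.9%) and 17 falls (30.4%) among 56 loci, with a median of -0.19 that turned positive at a minimum sum of 20, with the median ratio set to 1 and with ribosomal proteins held equal. Among expansins, which let wall polymers slide past each other, 5 of 8 loci rose and 0 fell, with a median log2 ratio of 1.04. Expansin-A8 (At2g40610) had 166 FPKM in VCA and 1339 in EFS, after 217 in YA and before 1876 and 1014 in FBS and SFS, a log2 ratio of 3.01. Expansin-A9 (At5g02260) had 65 FPKM in VCA, 433 in EFS and, outside this step, 42 in YA, 254 in FBS and 234 in SFS, a log2 ratio of 2.73. The A8 locus was lowest in VCA and stayed high from EFS on, and the A9 locus was highest in EFS. Expansin-A11 (At1g20190) showed 122 FPKM in VCA and 246 in EFS, beside 139 in YA, 98.2 in FBS and 55.6 in SFS, a log2 ratio of 1.01. Expansin-like A1 (At3g45970) showed 15.7 FPKM in VCA and 32.9 in EFS, after 29.2 in YA and before 53.5 and 57.3 in FBS and SFS, a log2 ratio of 1.06. The first of these fell back below its bud level by FBS, whereas the second continued upward. The summed FPKM of the list went from 658 in VCA to 2392 in EFS.

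Xyloglucan endotransglucosylases cut and rejoin the xyloglucan that ties cellulose fibrils together. Of the 8 loci 4 rose and 1 fell, with a median of 1.24 and a sum that went from 882 to 3167 FPKM. The locus At5g13870 had 241 FPKM in VCA, 1929 in EFS and, outside this step, 306 in YA, 5632 in FBS and 5712 in SFS, a log2 ratio of 3.0. Endotransglucosylase 22 (At5g57560) had 78.6 FPKM in VCA and 506 in EFS, beside 166 in YA, 829.8 in FBS and 402 in SFS, a log2 ratio of 2.69. The values of At4g37800 were 114 FPKM in VCA and 325 in EFS, after 233 in YA and before 1462 and 1257 in FBS and SFS, a log2 ratio of 1.51. These 3 were lowest in VCA and highest in FBS or SFS. At1g32170 likewise went through 58.6 FPKM in VCA, 198 in EFS and, outside this step, 68.6 in YA, 372 in FBS and 759 in SFS, a log2 ratio of 1.75. The exception was endotransglucosylase 9 (At4g03210), with 315 FPKM in VCA and 88.1 in EFS, beside 213 in YA, 10 in FBS and 5.71 in SFS, a log2 ratio of -1.84. It was the only called fall of the list and went on falling to the last stage.

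Pectin-modifying enzymes had 25 of 51 loci higher and 5 lower, a median of 0.89, and 3188 FPKM in VCA against 12557 in EFS. Pectinesterases remove methyl groups from pectin, and polygalacturonases and pectate lyases cut the chain. The abundant pectinesterase At4g33230 had 216 FPKM in VCA and 1492 in EFS, after 158 in YA and before 810.0 and 752 in FBS and SFS, a log2 ratio of 2.79. Exopolygalacturonase At1g02790 had 342 FPKM in VCA, 1111 in EFS and, outside this step, 224 in YA, 189.6 in FBS and 295 in SFS, a log2 ratio of 1.70. Exopolygalacturonase At3g14040 had 381 FPKM in VCA and 1028 in EFS, beside 226 in YA, 116 in FBS and 213 in SFS, a log2 ratio of 1.43. These 3 peaked in EFS, and the exopolygalacturonases dropped below their VCA level in FBS. Pectinesterase 4 (At2g47030) made the largest relative rise of the list, with 35.8 FPKM in VCA and 1171 in EFS, after 4.55 in YA and before 903 and 672 in FBS and SFS, a log2 ratio of 5.03. Pectinesterase 2.1 (At1g11580) had 1.15 FPKM in VCA, 18.8 in EFS and, outside this step, 12.8 in YA, 93.7 in FBS and 173 in SFS, a log2 ratio of 3.92. A polygalacturonase at At5g14650 had 5.99 FPKM in VCA and 90.2 in EFS, beside 7.68 in YA, 10.1 in FBS and 16.8 in SFS, a log2 ratio of 3.89. The last was high in EFS alone, with 16.8 FPKM or less in each of the other 4 libraries, whereas pectinesterase 2.1 climbed on to SFS. The falls were smaller in amount. Pectate lyase 15 (At3g24670) had 29.6 FPKM in VCA and 4.14 in EFS, after 16.1 in YA and before 0.22 and 0.34 in FBS and SFS, a log2 ratio of -2.81. Pectinesterase 7 (At1g02810) had 27.1 FPKM in VCA, 10.4 in EFS and, outside this step, 24.1 in YA, 9.9 in FBS and 7.03 in SFS, a log2 ratio of -1.38. Polygalacturonase At4g23820 had 90 FPKM in VCA and 38.8 in EFS, beside 54.3 in YA, 7.45 in FBS and 6.31 in SFS, a log2 ratio of -1.21. All of these falls began from their highest value in VCA.

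Several of the pectin loci that rose are known in Arabidopsis from pollen and its tube, among them At2g47030, At1g02790 and At3g14040. The list of late pollen genes moved in the same direction in the same library, with 9 of 29 loci higher, 2 lower and a median of 0.34. These shares were 31% and 6.9%, against 8.38% and 17.0% of all loci. The list summed to 2541 FPKM in VCA and 4292 in EFS. This list also holds profilins and actin-depolymerizing factors, which many cell types use. The part of pollen in the rise of the pectin enzymes was not tested. The pollen-specific extensin-like protein At2g15880, a wall protein of pollen, had 188 FPKM in VCA and 830.0 in EFS, after 119.6 in YA and before 384 and 434 in FBS and SFS, a log2 ratio of 2.14. Calcium-dependent protein kinase 34 (At5g19360), a kinase of the growing tube, had 17.1 FPKM in VCA, 113 in EFS and, outside this step, 6.72 in YA, 73.1 in FBS and 64.1 in SFS, a log2 ratio of 2.72. ANXUR2 (At5g28680), a receptor kinase that keeps the tube tip intact, had 14.8 FPKM in VCA and 66.9 in EFS, beside 10.2 in YA, 32 in FBS and 37.2 in SFS, a log2 ratio of 2.17. All of these were highest in EFS and lowest in YA. Profilin-1 (At2g19760), an actin-binding protein, had 359.6 FPKM in VCA and 756 in EFS, after 433 in YA and before 669 and 459 in FBS and SFS, a log2 ratio of 1.07. The pollen extensin-like locus At3g19020 had 462 FPKM in VCA, 541 in EFS and, outside this step, 848 in YA, 336 in FBS and 510.0 in SFS, a log2 ratio of 0.23. This locus was within 2-fold and highest in YA, unlike the others. The falls of the list were at 2 loci whose leading unigenes carry the Swiss-Prot name formin-like protein 3. This name is a best match and not an identity. At5g22790 had 17.9 FPKM in VCA and 5.38 in EFS, beside 12.4 in YA, 5.39 in FBS and 4.29 in SFS, a log2 ratio of -1.72. At2g37860 had 36.5 FPKM in VCA and 15 in EFS, after 27.3 in YA and before 11.6 and 8.69 in FBS and SFS, a log2 ratio of -1.28. Neither of these 2 loci returned to its VCA level later.

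Histones, the proteins that package DNA and are made during its replication, had the lowest median of the lists. None of the 25 tested loci rose and 18 fell, with a median log2 ratio of -1.73, and their summed FPKM went from 31175 in VCA to 8944 in EFS. Histone H2A (At5g02560) was the most abundant locus of VCA, with 7668 FPKM in VCA, 1603 in EFS and, outside this step, 5852 in YA, 213 in FBS and 269.6 in SFS, a log2 ratio of -2.26. Histone H2B.7 (At3g46030) had 3906 FPKM in VCA and 1164 in EFS, beside 3342 in YA, 553 in FBS and 543 in SFS, a log2 ratio of -1.75. Histone H4 (At1g07660) had 4561 FPKM in VCA and 1715 in EFS, after 4022 in YA and before 829.9 and 443 in FBS and SFS, a log2 ratio of -1.41. The sums of all 3 were highest in VCA and lower in every later library. The H4 sum joins 39 unigenes, and its leading unigene alone, 9.8% of the sum, moved the other way with a log2 ratio of 2.11. Histone H3.2 at At5g65360 had 2923 FPKM in VCA, 570.0 in EFS and, outside this step, 2585 in YA, 46.8 in FBS and 42.1 in SFS, a log2 ratio of -2.36. Histone H3.2 at At3g27360 had 3023 FPKM in VCA and 612 in EFS, beside 2279 in YA, 33.3 in FBS and 41 in SFS, a log2 ratio of -2.30. The low H2B.3 locus At3g53650 had 14.6 FPKM in VCA and 0 in EFS, after 15.6 in YA and before 0 and 4.68 in FBS and SFS. It was listed at 0 in EFS and FBS. The H3.2 loci were below 50 FPKM in FBS and SFS, and H2B.7 and H4 kept higher levels there.

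The replication machinery went the same way, with 15 of 26 loci lower, 0 higher and a median of -1.43. Histones and replication genes mark dividing cells, and both lists kept a negative median under the 10 alternatives run on lists, at -0.75 and -0.46 with ribosomal proteins held equal. Proliferating cell nuclear antigen (At2g29570), the clamp that holds the polymerase on DNA, had 116 FPKM in VCA, 33.7 in EFS and, outside this step, 98.4 in YA, 21.1 in FBS and 7.76 in SFS, a log2 ratio of -1.78. The small chain of ribonucleotide reductase (At3g27060), which makes deoxynucleotides, had 95.5 FPKM in VCA and 26.7 in EFS, beside 47 in YA, 2.23 in FBS and 8.27 in SFS, a log2 ratio of -1.83. The large subunit of the same enzyme (At2g21790) had 60.6 FPKM in VCA and 66.8 in EFS, after 56.8 in YA and before 35.3 and 6.18 in FBS and SFS, a log2 ratio of 0.14. The subunits thus differed at EFS, where the large one was within 2-fold and highest. Replication factor C subunit 2 (At1g63160) had 14 FPKM in VCA, 2.6 in EFS and, outside this step, 23.6 in YA, 9.56 in FBS and 2.92 in SFS, a log2 ratio of -2.38. Replication protein A subunit At2g24490, which coats single-stranded DNA, had 88.5 FPKM in VCA and 18.1 in EFS, beside 53 in YA, 31.9 in FBS and 14.6 in SFS, a log2 ratio of -2.29. The licensing factor MCM5 (At2g07690), part of the helicase, had 23.1 FPKM in VCA and 4.69 in EFS, after 22.5 in YA and before 0.41 and 0.34 in FBS and SFS, a log2 ratio of -2.27. MCM5 was close to equal in YA and VCA before its fall. Cyclins and their kinases fell at 13 of 40 loci and rose at 1, and kinesins fell at 9 of 31 and rose at 2. Their medians of -0.48 and -0.46 turned to 0.50 and 0.52 with ribosomal proteins held equal, and that of kinesins also turned positive at a minimum sum of 20.

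Ribosomal proteins of the cytosol had 117 loci, of which 59 fell and 5 rose. The median log2 ratio was -1.0, which lies at the limit of a call, and the sum went from 60215 to 30506 FPKM. The most abundant members had lower sums in EFS, though L14 was just short of 2-fold and not called. Protein L23 (At2g33370) had 1629 FPKM in VCA, 583 in EFS and, outside this step, 1072 in YA, 205 in FBS and 185 in SFS, a log2 ratio of -1.48. Protein P0 (At2g40010) had 1543 FPKM in VCA and 651 in EFS, beside 962 in YA, 365 in FBS and 181 in SFS, a log2 ratio of -1.24. Protein L14 (At4g27090) had 1361 FPKM in VCA and 682 in EFS, after 1308 in YA and before 538 and 341 in FBS and SFS, a log2 ratio of -1.0. Each was highest in VCA and went down at every later stage. The largest changes were in loci of lower level. L44 at At4g14320 had 181 FPKM in VCA, 0.96 in EFS and, outside this step, 0 in YA, 0.41 in FBS and 0.42 in SFS, a log2 ratio of -7.41. The other L44 locus, At3g23390, had 269 FPKM in VCA and 288 in EFS, beside 418 in YA, 168 in FBS and 98.3 in SFS, a log2 ratio of 0.10. The first was listed at 0 in YA and above 1 FPKM in VCA only, and since reads of near-identical copies can be divided between them, the L44 loci are uncertain when taken apart. S28 at At5g64140 had 53.7 FPKM in VCA and 3 in EFS, after 38.9 in YA and before 11.7 and 2.49 in FBS and SFS, a log2 ratio of -4.12. L17-1 (At1g27400) had 56.2 FPKM in VCA, 11.7 in EFS and, outside this step, 13.5 in YA, 17.8 in FBS and 3.06 in SFS, a log2 ratio of -2.26. For L17-1 the leading unigene alone gave -0.92, short of the call. Rises were found for L36-1 (At2g37600), with 0.25 FPKM in VCA and 11.8 in EFS, beside 0.93 in YA, 3.98 in FBS and 2.13 in SFS, a log2 ratio of 5.08. L37-2 (At1g52300) had 10.5 FPKM in VCA and 31.4 in EFS, after 76.4 in YA and before 40.6 and 2.21 in FBS and SFS, a log2 ratio of 1.57. L7-3 (At2g44120) had 11.2 FPKM in VCA, 28.9 in EFS and, outside this step, 6.5 in YA, 10.6 in FBS and 29.6 in SFS, a log2 ratio of 1.36. None of these exceeded 31.4 FPKM in EFS, and L37-2 had been higher in YA.

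Calls were fewer in several other housekeeping lists. All 34 respiratory chain subunits lay within 2-fold, with log2 ratios from -0.77 to 0.72 and a median of 0.02. All 13 Calvin cycle enzymes also lay within 2-fold, from -0.44 to 0.63. Plastid and mitochondrial ribosomal proteins fell at 3 of 53 loci with none higher, and proton pumps rose at 1 of 21 with none lower. The proteasome rose at 5 and fell at 3 of 43, or 11.6% and 6.98% against 8.38% and 17.0% of all loci. Spliceosome proteins had falls at 17.5% of 63 loci, near the 17.0% of all loci, 1 rise and a median of -0.62, which became 0.36 with ribosomal proteins held equal. The list of polyubiquitin, elongation factor 1-alpha and GAPDH had 4 falls and 0 rises among 14 loci. Its falls, at 28.6%, were more frequent than the 17.0% of all loci.

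**Figure D3:**
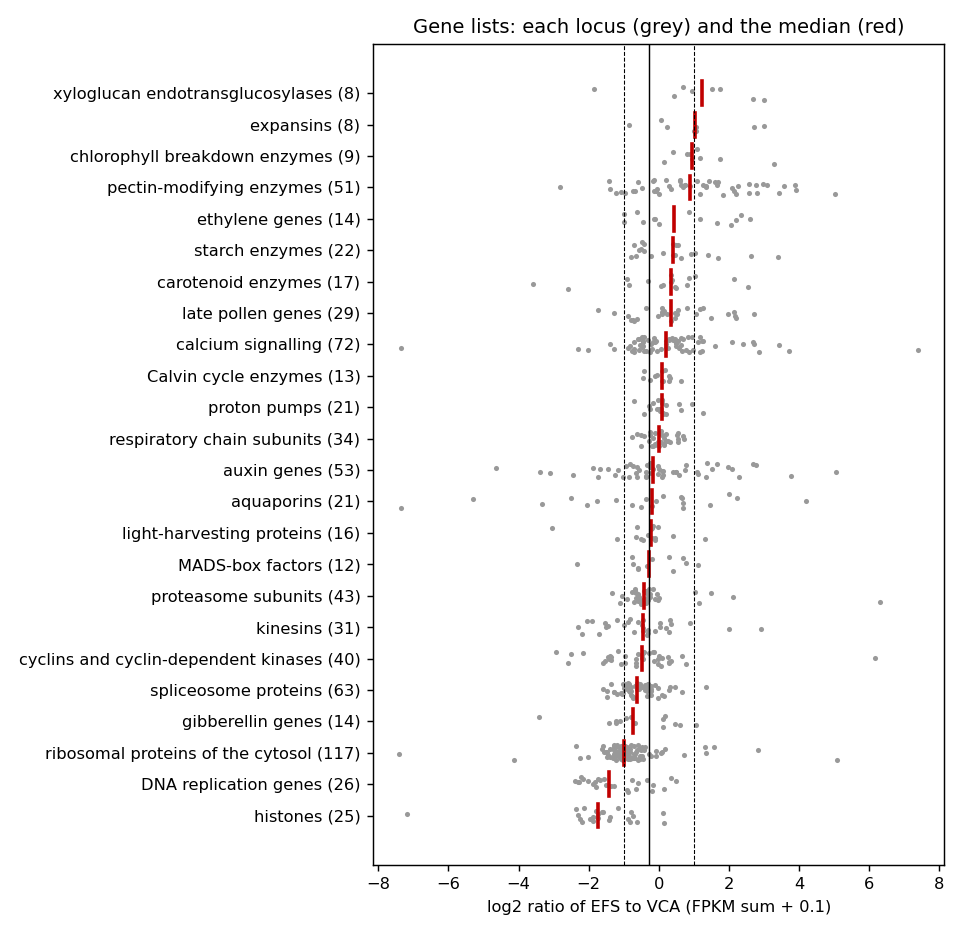
Log2 ratio of EFS to VCA (x axis) for each locus (grey points) of 24 gene lists, with the list median in red, the number of loci in brackets, the median of all loci (-0.28) as a solid line and 2-fold as dashed lines. Wall enzymes and chlorophyll breakdown have medians from 0.89 to 1.24 and histones one of -1.73. Dividing by ribosomal proteins moves all points 0.98 to the right, after which the medians of the lists between -0.98 and 0 are positive.

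Sugar supply and water transport were mixed. Starch enzymes had 5 rises and 0 falls among 22 loci, with a median of 0.41. The rises were 22.7% of the list, against 8.38% of all loci, of which 17.0% fell. Beta-amylase 3 (At4g17090), a plastid enzyme that releases maltose from starch, had 75.6 FPKM in VCA and 468 in EFS, beside 173 in YA, 421 in FBS and 199 in SFS, a log2 ratio of 2.63. Alpha-amylase 3 (At1g69830) had 64.3 FPKM in VCA and 207 in EFS, after 73.1 in YA and before 219 and 237 in FBS and SFS, a log2 ratio of 1.69. Beta-amylase At4g15210 had 3.17 FPKM in VCA, 34.7 in EFS and, outside this step, 8.28 in YA, 0.12 in FBS and 0.06 in SFS, a log2 ratio of 3.41. All 3 were lower in VCA than in YA, and At4g15210 was near 0 again in FBS and SFS. Beta-amylase 1 (At3g23920) was within 2-fold, with 268 FPKM in VCA and 354 in EFS, beside 319.6 in YA, 787 in FBS and 528 in SFS, a log2 ratio of 0.40.

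Sugar transporters had 4 rises and 6 falls among 23 loci, or 17.4% and 26.1% against 8.38% and 17.0% of all loci. SWEET3b (At5g53190), named after a family of sugar exporters, had 666 FPKM in VCA and 1532 in EFS, after 417 in YA and before 3737 and 4093 in FBS and SFS, a log2 ratio of 1.20. Hexose carrier HEX6 (At5g61520) had 2.02 FPKM in VCA, 43.9 in EFS and, outside this step, 22.5 in YA, 27.7 in FBS and 34.6 in SFS, a log2 ratio of 4.37. Sugar transport protein 10 (At3g19940), known from pollen tubes in Arabidopsis, had 38.2 FPKM in VCA and 311 in EFS, beside 20.6 in YA, 84 in FBS and 113 in SFS, a log2 ratio of 3.02. Of these 3, SWEET3b alone kept climbing after EFS. Polyol transporter 5 (At3g18830) had 479 FPKM in VCA and 677 in EFS, after 545 in YA and before 1055 and 1203 in FBS and SFS, a log2 ratio of 0.50. SWEET16 (At5g50800) had 350.0 FPKM in VCA, 304 in EFS and, outside this step, 453 in YA, 223 in FBS and 7.78 in SFS, a log2 ratio of -0.20. Both lay within 2-fold across the step, after which the polyol transporter climbed and SWEET16 declined. SWEET7b (At1g66770) had 13.5 FPKM in VCA and 0.71 in EFS, beside 10.9 in YA, 3.3 in FBS and 4.96 in SFS, a log2 ratio of -4.07. Sugar transport protein 4 (At3g19930) had 19.2 FPKM in VCA and 4.04 in EFS, after 25.9 in YA and before 0.37 and 0.96 in FBS and SFS, a log2 ratio of -2.22. Sugar transport protein 14 (At1g77210) had 57.5 FPKM in VCA, 12.4 in EFS and, outside this step, 49.3 in YA, 18.4 in FBS and 54.5 in SFS, a log2 ratio of -2.21. All of these fell, and protein 14 was back near its VCA level in SFS.

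Aquaporins, the water channels, had 4 rises and 7 falls among 21 loci, or 19% and 33.3% against 8.38% and 17.0% of all loci, and their sum hardly differed, at 3422 FPKM in VCA and 3416 in EFS. The main channels lay within 2-fold. PIP1-2 (At4g23400) had 859.5 FPKM in VCA and 926 in EFS, beside 1078 in YA, 890.2 in FBS and 922 in SFS, a log2 ratio of 0.11. TIP1-1 (At2g36830) had 876 FPKM in VCA and 832 in EFS, after 1505 in YA and before 914 and 413 in FBS and SFS, a log2 ratio of -0.07. PIP1-3 (At1g01620) had 470.5 FPKM in VCA, 732 in EFS and, outside this step, 331 in YA, 603 in FBS and 909 in SFS, a log2 ratio of 0.64. The rises were in channels of lower level. SIP2-1 (At3g56950) had 25.6 FPKM in VCA and 121 in EFS, beside 37.8 in YA, 66.6 in FBS and 93.6 in SFS, a log2 ratio of 2.24. PIP2-2 (At2g37170) had 12.9 FPKM in VCA and 52.3 in EFS, after 17.8 in YA and before 45.3 and 23.1 in FBS and SFS, a log2 ratio of 2.01. NIP1-1 (At4g18910) had 5.95 FPKM in VCA, 16.6 in EFS and, outside this step, 8.71 in YA, 10.1 in FBS and 20.6 in SFS, a log2 ratio of 1.46. The falls with the largest ratios were in loci of the buds. NIP7-1 (At3g06100), known from Arabidopsis anthers, had 16.3 FPKM in VCA and 0 in EFS, beside 22.4 in YA, 0.09 in FBS and 0.54 in SFS and was thus listed at 0 in EFS. PIP2-8 (At2g16850) had 18.3 FPKM in VCA and 0.37 in EFS, after 17.5 in YA and before 0.42 and 0.84 in FBS and SFS, a log2 ratio of -5.29. TIP1-3 (At4g01470), a tonoplast channel, had 104 FPKM in VCA, 10.3 in EFS and, outside this step, 86.8 in YA, 5.83 in FBS and 3.79 in SFS, a log2 ratio of -3.32. All 3 were high in both buds and low in all 3 flower libraries.

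Chlorophyll breakdown enzymes rose at 4 of 9 loci with 0 falls and a median of 0.94. Chlorophyllase-1 (At1g19670), which removes the phytol tail, had 22.1 FPKM in VCA and 219 in EFS, beside 51.3 in YA, 61.9 in FBS and 52.7 in SFS, a log2 ratio of 3.30. The chlorophyll b reductase NYC1 (At4g13250) had 39.4 FPKM in VCA and 133 in EFS, after 54.5 in YA and before 246 and 380.3 in FBS and SFS, a log2 ratio of 1.75. A locus named pheophytinase, At5g38520, had 9.34 FPKM in VCA, 21.1 in EFS and, outside this step, 27.9 in YA, 9.6 in FBS and 17.8 in SFS, a log2 ratio of 1.17. Chlorophyllase-1 peaked in EFS, whereas NYC1 rose until senescence. Another locus under the pheophytinase name, At4g15600, had 40.6 FPKM in VCA and 54.1 in EFS, beside 78.5 in YA, 47.3 in FBS and 50.4 in SFS, a log2 ratio of 0.41. Its sum joins 80 unigenes, of which the leading one held 9.3%. For both loci the name is a best match and not an identity. The light-harvesting proteins, which mark green tissue, had 1 rise and 2 falls among 16 loci. These shares of 6.25% and 12.5% lay near the 8.38% and 17.0% of all loci. The proteins summed to 9033 FPKM in VCA and 6353 in EFS. Their most abundant locus, At1g29930, had 5916 FPKM in VCA and 3765 in EFS, after 3659.8 in YA and before 1466 and 6704 in FBS and SFS, a log2 ratio of -0.65. It was highest in SFS. The antenna protein At2g05070 had 549 FPKM in VCA, 386 in EFS and, outside this step, 469 in YA, 236 in FBS and 777 in SFS, a log2 ratio of -0.51. CP29.2 (At3g08940), a minor antenna protein, had 382 FPKM in VCA and 353 in EFS, beside 299 in YA, 209.9 in FBS and 336 in SFS, a log2 ratio of -0.11. The abundant antenna loci thus lay within 2-fold, and the calls were at low members. Protein E (At1g76570) had 6.52 FPKM in VCA and 16.3 in EFS, after 7.94 in YA and before 25.6 and 38.2 in FBS and SFS, a log2 ratio of 1.31. Protein 1B (At1g29910) had 36.9 FPKM in VCA, 16.1 in EFS and, outside this step, 2.91 in YA, 0.29 in FBS and 3.1 in SFS, a log2 ratio of -1.19. The former kept rising to SFS.

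Carotenoid enzymes had 3 rises and 2 falls among 17 loci, or 17.6% and 11.8% against 8.38% and 17.0% of all loci. Phytoene synthase (At5g17230), the entry step, had 120.4 FPKM in VCA and 20 in EFS, beside 98.5 in YA, 49.9 in FBS and 30.9 in SFS, a log2 ratio of -2.59. Beta-carotene hydroxylase 2 at At4g25700, which makes zeaxanthin, had 136 FPKM in VCA and 598 in EFS, after 192 in YA and before 488 and 199 in FBS and SFS, a log2 ratio of 2.14. A locus named zeaxanthin epoxidase, At5g11330, had 6.51 FPKM in VCA and 39 in EFS, a log2 ratio of 2.56. It had 20.3 FPKM in YA, 43.7 in FBS and 26.9 in SFS. Phytoene synthase was highest in VCA, when colour became visible, At4g25700 in EFS and At5g11330 in FBS. The epoxidase name is that of the best match and not an identity. Another locus under this name, At5g05320, had 31 FPKM in VCA and 63.5 in EFS, a log2 ratio of 1.03. It had 19.5 FPKM in YA, 271 in FBS and 137 in SFS. The other hydroxylase locus, At5g52570, had 23.9 FPKM in VCA and 1.87 in EFS, after 10.5 in YA and before 2.45 and 1.68 in FBS and SFS, a log2 ratio of -3.60. The hydroxylase loci moved in opposite directions, the abundant one upward. Capsanthin/capsorubin synthase At3g10230 had 326 FPKM in VCA, 262 in EFS and, outside this step, 455 in YA, 182 in FBS and 156 in SFS, a log2 ratio of -0.32. Carotenoid cleavage dioxygenase 1 (At3g63520) had 102 FPKM in VCA and 177 in EFS, beside 79.2 in YA, 428 in FBS and 375 in SFS, a log2 ratio of 0.80. Both were within 2-fold at this step.

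Flavonoid and anthocyanin enzymes had 7 rises and 4 falls among 30 loci, or 23.3% and 13.3% against 8.38% and 17.0% of all loci. Chalcone synthase (At5g13930), the entry enzyme, had 1476 FPKM in VCA and 518 in EFS, after 812 in YA and before 800.4 and 1188 in FBS and SFS, a log2 ratio of -1.51. Dihydroflavonol reductase (At5g42800), a late step, had 101 FPKM in VCA, 515 in EFS and, outside this step, 181 in YA, 867 in FBS and 1065 in SFS, a log2 ratio of 2.35. Another reductase locus, At1g61720, had 1.94 FPKM in VCA and 38.4 in EFS, beside 10.8 in YA, 202 in FBS and 125 in SFS, a log2 ratio of 4.24. Chalcone synthase was highest in VCA and the reductases in FBS or SFS. Flavonoid 3'-monooxygenase At5g07990 had 341 FPKM in VCA and 401 in EFS, after 154 in YA and before 407 and 292 in FBS and SFS, a log2 ratio of 0.23. Its low relative At4g22690 had 15.8 FPKM in VCA, 0.21 in EFS and, outside this step, 2.71 in YA, 9.11 in FBS and 0.82 in SFS, a log2 ratio of -5.68. Flavonol synthase At5g08640 had 176 FPKM in VCA and 75.5 in EFS, beside 112 in YA, 92.8 in FBS and 83.4 in SFS, a log2 ratio of -1.22. Only the first of these held its level. The glucosyltransferase At1g01420 had 2.45 FPKM in VCA and 10.6 in EFS, after 31.5 in YA and before 9.33 and 0.45 in FBS and SFS, a log2 ratio of 2.07.

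The largest rises among named loci with at least 50 FPKM were in genes of scent compounds. Nerolidol synthase 1 (At1g61680), which makes a sesquiterpene alcohol in other plants, had 1.69 FPKM in VCA, 803 in EFS and, outside this step, 2.25 in YA, 676 in FBS and 3.29 in SFS, a log2 ratio of 8.81. Salicylate carboxymethyltransferase (At5g66430), named for making the volatile methyl salicylate, had 0.23 FPKM in VCA and 56.2 in EFS, beside 11 in YA, 3.51 in FBS and 2.78 in SFS, a log2 ratio of 7.42. Nerolidol synthase was high in EFS and FBS, and the methyltransferase in EFS alone. The alpha-terpineol synthases moved the other way at this step. The locus At3g25830 had 47.9 FPKM in VCA and 15 in EFS, after 14 in YA and before 576 and 1555 in FBS and SFS, a log2 ratio of -1.67. The locus At2g24210 had 13.4 FPKM in VCA, 6.39 in EFS and, outside this step, 7.55 in YA, 175 in FBS and 449 in SFS, a log2 ratio of -1.06. Both were lower in EFS and then highest in SFS, when nerolidol synthase was low. The call at At2g24210 ended with a pseudocount of 1 and with the median ratio set to 1. Of the supply enzymes, deoxyxylulose phosphate synthase (At4g15560) had 111 FPKM in VCA and 265 in EFS, beside 129.6 in YA, 222 in FBS and 229 in SFS, a log2 ratio of 1.25. Farnesyl pyrophosphate synthase (At4g17190) had 10.2 FPKM in VCA and 4.82 in EFS, after 36.9 in YA and before 8.7 and 2.82 in FBS and SFS, a log2 ratio of -1.07. The reductase of the mevalonate pathway (At1g76490) had 142 FPKM in VCA, 139 in EFS and, outside this step, 129 in YA, 84.9 in FBS and 65.3 in SFS, a log2 ratio of -0.03. The first, of the plastid route, rose, and the fall of farnesyl pyrophosphate synthase was not called with a pseudocount of 1 or with the median ratio set to 1.

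**Figure D4:**
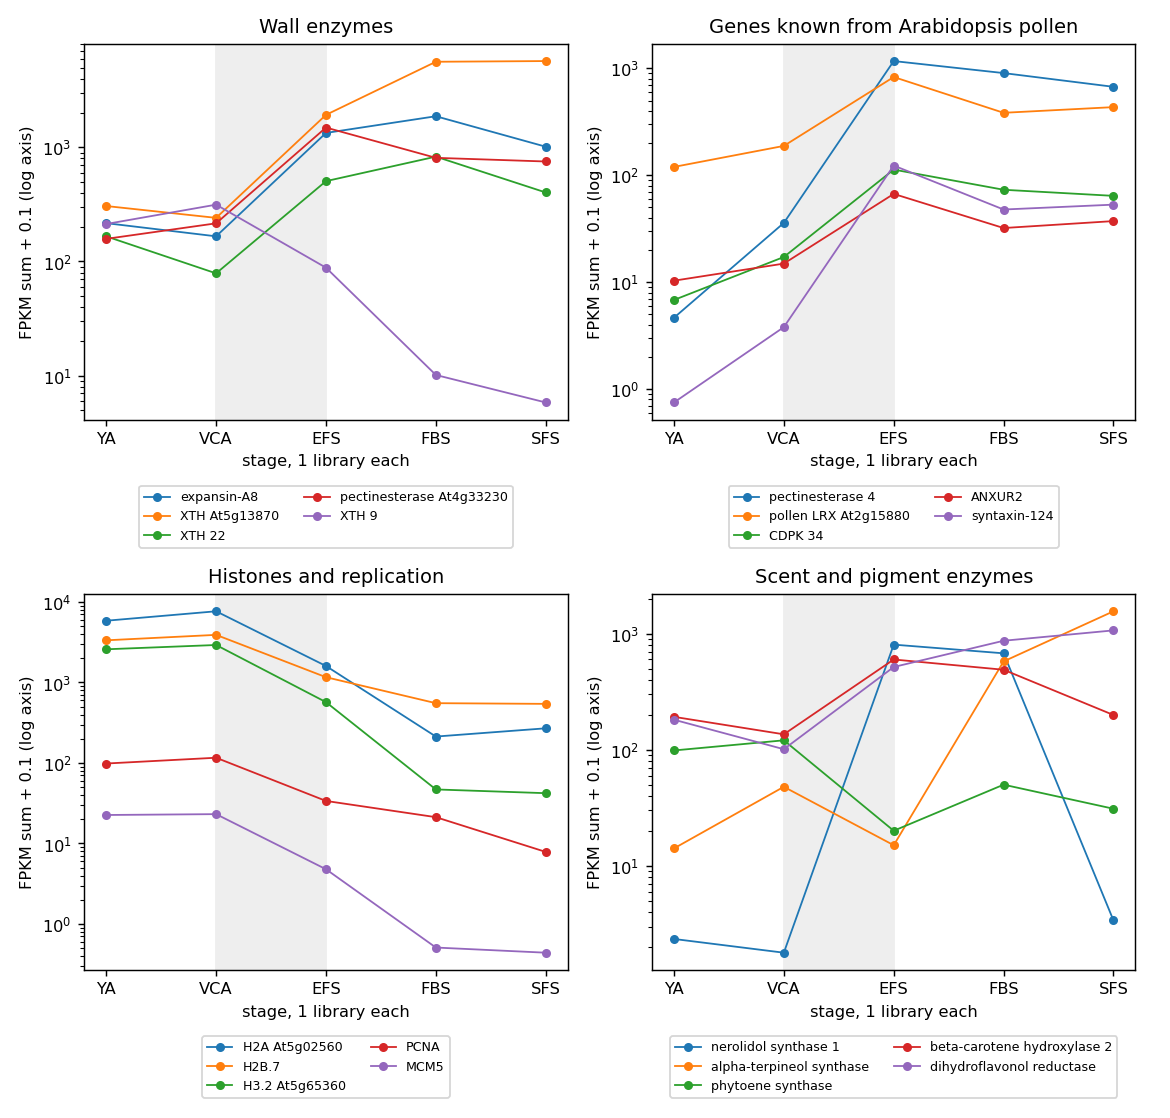
FPKM sum plus 0.1 (log axis) of 20 named loci in the 5 libraries in stage order, 1 library a stage, with the step from VCA to EFS shaded. Lines only join the points. Wall and pollen genes step up at the shaded interval except endotransglucosylase 9, histones and replication genes step down, and nerolidol synthase goes from 1.69 to 803 FPKM while alpha-terpineol synthase peaks in SFS.

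Most of the other large rises had a shape in common, with low buds and a peak in EFS. Syntaxin-124 (At1g61290), a membrane fusion protein of pollen in Arabidopsis, had 3.7 FPKM in VCA and 123 in EFS, beside 0.65 in YA, 47.7 in FBS and 53 in SFS, a log2 ratio of 5.02. The 21 kDa protein At1g23205 had 4.29 FPKM in VCA and 123 in EFS, after 2.87 in YA and before 85.2 and 90.2 in FBS and SFS, a log2 ratio of 4.81. Glucan endo-1,3-beta-glucosidase 8 (At5g64790) had 3.48 FPKM in VCA, 79.8 in EFS and, outside this step, 1.06 in YA, 30.3 in FBS and 47.8 in SFS, a log2 ratio of 4.48. These 3 were highest in EFS. Lipid transfer-like protein VAS (At1g18280) had 1.21 FPKM in VCA and 57.9 in EFS, beside 0.52 in YA, 22.4 in FBS and 22.3 in SFS, a log2 ratio of 5.47. YLS9 (At1g65690), a protein named from yellowing leaves, had 0.58 FPKM in VCA and 57.5 in EFS, after 0 in YA and before 17.8 and 32.1 in FBS and SFS, a log2 ratio of 6.41. The MAP kinase kinase kinase named NPK1 (At2g32510) had 1.11 FPKM in VCA, 88.9 in EFS and, outside this step, 2.16 in YA, 35.2 in FBS and 49.2 in SFS, a log2 ratio of 6.20. These 3 also peaked in EFS and kept intermediate levels later. The locus At5g39650 carries the Swiss-Prot name multiprotein-bridging factor 1c, a best match and not an identity. It had 2.45 FPKM in VCA and 117 in EFS, a log2 ratio of 5.52, beside 4.14 in YA, 35.7 in FBS and 61.7 in SFS. Flavin-containing monooxygenase 1 (At1g19250), an enzyme of systemic defense in Arabidopsis, had 16 FPKM in VCA and 378 in EFS, after 16.7 in YA and before 298 and 532 in FBS and SFS, a log2 ratio of 4.55. At5g39650 had the same shape as the loci before it, and the monooxygenase was highest in SFS.

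The largest falls included genes known from anthers and from storage tissue. The list searched under names of pollen wall and tapetum genes had 3 rises and 1 fall among 6 loci, with a median of 0.74. These shares were 50% and 16.7%, against 8.38% and 17.0% of all loci. Loci named cytochrome P450 704C1 (At2g45510) and callose synthase 5 (At1g05570) rose, with log2 ratios of 1.22 and 1.97. The fall was at a locus named anther-specific protein APG (At1g76010), with -1.04, and its leading unigene alone gave -0.4. These names are best matches and not identities, so the list does not show whether tapetum genes held their level. Lipid-transfer protein A (At3g51590), whose Arabidopsis homolog is known from the tapetum, the tissue that feeds pollen, had 393 FPKM in VCA, 0.78 in EFS and, outside this step, 70.2 in YA, 0.43 in FBS and 0 in SFS, a log2 ratio of -8.80. Feruloyl CoA ortho-hydroxylase 1 (At3g12900), which leads to scopoletin, had 856 FPKM in VCA and 23.4 in EFS, beside 527 in YA, 3.1 in FBS and 10.5 in SFS, a log2 ratio of -5.19. The vicilin-like locus At2g28490, a relative of seed storage proteins, had 122 FPKM in VCA and 2.03 in EFS, after 172 in YA and before 0.63 and 1.2 in FBS and SFS, a log2 ratio of -5.84. These 3 had higher sums in both buds than in any flower library, where none exceeded 23.4 FPKM. Peroxygenase (At4g26740), a caleosin of oil bodies, had 59.4 FPKM in VCA, 1.26 in EFS and, outside this step, 75.2 in YA, 0.19 in FBS and 0.96 in SFS, a log2 ratio of -5.45. Early nodulin-like protein At1g48940 had 54.5 FPKM in VCA and 0.13 in EFS, beside 51.8 in YA, 0.55 in FBS and 0.83 in SFS, a log2 ratio of -7.89. Another of this family, At3g18590, had 153 FPKM in VCA and 4.38 in EFS, after 113 in YA and before 3.03 and 1.49 in FBS and SFS, a log2 ratio of -5.10. These too were lost at opening and did not return. The proline-rich protein At1g62500 had 57.8 FPKM in VCA, 2.87 in EFS and, outside this step, 25 in YA, 0.52 in FBS and 2.52 in SFS, a log2 ratio of -4.29. A protein named for its likeness to the beta subunit of G proteins (At1g18080) had 62.6 FPKM in VCA and 0.93 in EFS. It had 50.9 in YA, 0.44 in FBS and 0.09 in SFS, and its log2 ratio was -5.93. Aldehyde dehydrogenase B7 (At1g23800) had 73 FPKM in VCA and 4.85 in EFS, after 3.53 in YA and before 174 and 63.7 in FBS and SFS, a log2 ratio of -3.88. The dehydrogenase was an exception, since it was low in EFS but high on either side. Metallothionein 2 (At3g09390) showed the same dip, with 483 FPKM in VCA, 12.9 in EFS and, outside this step, 329 in YA, 1746 in FBS and 209 in SFS, a log2 ratio of -5.22. The abundant metallothionein At5g02380 had 2064 FPKM in VCA and 5555 in EFS, beside 3159 in YA, 7115 in FBS and 14054 in SFS, a log2 ratio of 1.43. Metallothioneins bind metal ions, and the more abundant locus went up as the other went down.

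Outside the histones, the most abundant loci included lipid-transfer proteins and a plastid protein. Lipid-transfer protein At5g59320 led EFS with 4072 FPKM in VCA and 6545 in EFS, after 3404 in YA and before 10801 and 12028 in FBS and SFS, a log2 ratio of 0.68. Its neighbour in number, At5g59310, had 1579.7 FPKM in VCA, 6373 in EFS and, outside this step, 774 in YA, 9193 in FBS and 14574 in SFS, a log2 ratio of 2.01. Plastid-lipid-associated protein (At4g04020), which coats the pigment globules of plastids, had 3759 FPKM in VCA and 6085 in EFS, beside 5241 in YA, 3923 in FBS and 2899.8 in SFS, a log2 ratio of 0.69. The lipid-transfer loci climbed from YA to SFS, and the plastid protein was highest in EFS.

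Ethylene acts in opening and senescence of many flowers. The list searched under names of ethylene genes had 6 rises and 1 fall among 14 loci with a median of 0.43. This median was -0.04 when loci below 20 FPKM were left out. The names are best matches and not identities, and the list also holds ACC oxidase homologs and kinases named CTR1. Whether these loci act in the ethylene pathway was not tested. ACC oxidase (At1g05010), the last step of ethylene synthesis, had 98.7 FPKM in VCA and 456 in EFS, after 181 in YA and before 1162 and 1132 in FBS and SFS, a log2 ratio of 2.21. An ACC oxidase homolog at At1g06650 had 67.6 FPKM in VCA, 152 in EFS and, outside this step, 68.6 in YA, 434 in FBS and 374 in SFS, a log2 ratio of 1.17. A lower homolog at At1g06620 had 2.85 FPKM in VCA and 14.8 in EFS, beside 16.6 in YA, 11.2 in FBS and 9.42 in SFS, a log2 ratio of 2.34. The main oxidase continued to climb into FBS. The kinase named CTR1 at At3g59830 had 26.6 FPKM in VCA and 111 in EFS, after 19.9 in YA and before 105 and 65.6 in FBS and SFS, a log2 ratio of 2.06. Another locus under this name, At3g58640, had 49.7 FPKM in VCA, 24.8 in EFS and, outside this step, 52.2 in YA, 16.9 in FBS and 11.1 in SFS, a log2 ratio of -1.0. The first rose, and the fall of the other sat at the limit and ended with a pseudocount of 1, with equal totals and with the median ratio set to 1.

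Auxin genes had 13 rises and 11 falls among 53 loci, or 24.5% and 20.8% against 8.38% and 17.0% of all loci, and the direction differed within the group. Auxin-induced protein 10A5 (At1g19830), of the SAUR family of growth-related proteins, had 4.13 FPKM in VCA and 140.0 in EFS, beside 9.52 in YA, 394 in FBS and 202 in SFS, a log2 ratio of 5.05. Auxin-induced protein 6B at At1g29500 had 1.56 FPKM in VCA and 22.5 in EFS, after 0.75 in YA and before 99.1 and 31.5 in FBS and SFS, a log2 ratio of 3.77. Auxin-induced protein 6B at At5g20810 had 24.9 FPKM in VCA, 171 in EFS and, outside this step, 27.9 in YA, 86.9 in FBS and 126 in SFS, a log2 ratio of 2.77. The locus At5g20810 was highest in EFS and the others in FBS. Auxin-induced protein X15 (At5g18030) went the other way, with 23.9 FPKM in VCA and 2.18 in EFS, beside 31.6 in YA, 11.2 in FBS and 5.34 in SFS, a log2 ratio of -3.40. GH3.6 (At5g54510), which joins auxin to amino acids, had 25.9 FPKM in VCA and 2.94 in EFS, after 18.5 in YA and before 27.2 and 84 in FBS and SFS, a log2 ratio of -3.10. GH3.17 (At1g28130) had 14 FPKM in VCA, 2.47 in EFS and, outside this step, 10.6 in YA, 8.85 in FBS and 20 in SFS, a log2 ratio of -2.45. Both GH3 loci dipped in EFS and were higher again in SFS. The most abundant members lay within 2-fold. Auxin-binding protein 19a (At5g20630) had 646 FPKM in VCA and 422 in EFS, beside 289.7 in YA, 142 in FBS and 105 in SFS, a log2 ratio of -0.61. Auxin transporter 2 (At2g38120) had 218 FPKM in VCA and 308 in EFS, after 148 in YA and before 329 and 119 in FBS and SFS, a log2 ratio of 0.50. Auxin-induced protein At3g09870 had 209 FPKM in VCA, 310.4 in EFS and, outside this step, 131 in YA, 685 in FBS and 293 in SFS, a log2 ratio of 0.57. Their peaks fell in VCA for the binding protein and in FBS for the others. Of the other hormone lists, cytokinin genes had 4 falls among 12 loci and jasmonate genes 4 among 18, each with 0 rises, and gibberellin genes had 5 falls and 1 rise among 14. The falls were 33.3%, 22.2% and 35.7% of these lists against 17.0% of all loci. Abscisic acid genes had 3 falls (23.1%) and 1 rise (7.69%) among 13 loci, and brassinosteroid genes 0 falls and 1 rise (7.69%) among 13.

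Calcium signalling genes rose at 15 of 72 loci and fell at 5, with a median of 0.22. These shares were 20.8% and 6.94%, against 8.38% and 17.0% of all loci. Calmodulin-7 (At3g43810), the calcium sensor with the highest level, had 960.0 FPKM in VCA and 996 in EFS, beside 917 in YA, 955 in FBS and 887 in SFS, a log2 ratio of 0.05. Calmodulin-like protein 3 (At3g07490) had 91.9 FPKM in VCA and 598 in EFS, after 64.3 in YA and before 345 and 374 in FBS and SFS, a log2 ratio of 2.70. The calcium pump ATPase 8 (At5g57110) had 167 FPKM in VCA, 388 in EFS and, outside this step, 169 in YA, 200.5 in FBS and 190.3 in SFS, a log2 ratio of 1.22. The general sensor stayed level and the others peaked in EFS. The calmodulin locus At4g27790 had 0.09 FPKM in VCA and 32.1 in EFS, beside 0 in YA, 6.26 in FBS and 24.3 in SFS, a log2 ratio of 7.41. CML45 (At5g39670) had 2.94 FPKM in VCA and 39.9 in EFS, after 14.8 in YA and before 103 and 25.5 in FBS and SFS, a log2 ratio of 3.72. CML41 (At3g50770) had 5.58 FPKM in VCA, 61.6 in EFS and, outside this step, 15.9 in YA, 72.5 in FBS and 41.4 in SFS, a log2 ratio of 3.44. These are calcium-binding proteins, and none exceeded 5.58 FPKM in VCA. The kinase SK5 (At5g23580) had 16.2 FPKM in VCA and 0 in EFS, beside 11.5 in YA, 3.79 in FBS and 0 in SFS and was listed at 0 in EFS. Annexin RJ4 (At5g10230), which binds membranes in the presence of calcium, had 197 FPKM in VCA and 40.1 in EFS, after 206 in YA and before 3.16 and 5.84 in FBS and SFS, a log2 ratio of -2.29. The calcium pump ATPase 4 (At3g57330) had 36 FPKM in VCA, 14.8 in EFS and, outside this step, 44.5 in YA, 27.3 in FBS and 21.3 in SFS, a log2 ratio of -1.27. The annexin went on falling after EFS, whereas the pump was lowest in EFS.

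MADS-box factors, which set the identity of floral organs, had 1 rise and 1 fall among 12 loci, or 8.33% each against 8.38% and 17.0% of all loci. The study designed qPCR primers for 3 MADS-box unigenes and for other genes that are not described here. The MADS-box primers are shown because they tie the summed loci to transcripts that can be assayed, 5′ to 3′ as designed:
Unigene7086 forward: cctaaactttcaaggcaacacaa
Unigene7086 reverse: ctacgacgaggagccacacaa
CL28019.Contig1 forward: tagggcttctactcttgctttga
CL28019.Contig1 reverse: gttatggaggaccagaaccgaa
CL7507.Contig2 forward: tggaaatgaacgggaatgtgag
CL7507.Contig2 reverse: ctgtagattaggctggattgggt

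Unigene7086 is the leading unigene of At2g45650, whose Swiss-Prot name is MADS-box factor 6, of the AGL6 group. This locus had 372 FPKM in VCA and 245 in EFS, beside 257 in YA, 359 in FBS and 243 in SFS, a log2 ratio of -0.60. CL28019.Contig1 leads At1g24260, an AGL9 homolog of the SEPALLATA group, with 121 FPKM in VCA and 71.6 in EFS, after 116 in YA and before 94.5 and 105 in FBS and SFS, a log2 ratio of -0.75. CL7507.Contig2 leads At5g20240, the PISTILLATA type that specifies petals and stamens, with 940.4 FPKM in VCA, 825 in EFS and, outside this step, 1007 in YA, 784 in FBS and 576 in SFS, a log2 ratio of -0.19. These 3 lay within 2-fold of their VCA level. The APETALA3 type, At3g54340, which acts with PISTILLATA, had 196 FPKM in VCA and 131 in EFS, beside 189 in YA, 84.7 in FBS and 61.9 in SFS, a log2 ratio of -0.58. AGAMOUS (At4g18960), which specifies stamens and carpels, was the fall of the list, with 146 FPKM in VCA and 28.9 in EFS, after 149.7 in YA and before 10 and 38.6 in FBS and SFS, a log2 ratio of -2.33. The SVP-type locus At2g22540 was the rise, with 4.61 FPKM in VCA, 10.2 in EFS and, outside this step, 6.21 in YA, 1.12 in FBS and 0.63 in SFS, a log2 ratio of 1.12, and this ended with a pseudocount of 1. AGAMOUS and the SVP type thus moved at this step, and the 3 MADS-box loci with primers did not pass 2-fold.

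AP2/ERF factors had 9 rises and 5 falls among 24 loci, or 37.5% and 20.8% against 8.38% and 17.0% of all loci. The rises included DREB factors, which bind the dehydration and cold response element. DREB2B (At5g05410) had 10.2 FPKM in VCA and 37.7 in EFS, beside 19.8 in YA, 101 in FBS and 82.8 in SFS, a log2 ratio of 1.87. DREB1A (At4g25480) had 6.29 FPKM in VCA and 23.1 in EFS, after 1.43 in YA and before 59.6 and 16.3 in FBS and SFS, a log2 ratio of 1.86. ERF114 (At5g61890) had 3.45 FPKM in VCA, 12.6 in EFS and, outside this step, 9.09 in YA, 98.5 in FBS and 141 in SFS, a log2 ratio of 1.83. These 3 went higher still in FBS. The leading unigene of DREB1A alone had a log2 ratio of 0.93, short of the call. AINTEGUMENTA (At4g37750), a promoter of organ growth by division, had 30.2 FPKM in VCA and 5.43 in EFS, beside 43.9 in YA, 3.62 in FBS and 15.2 in SFS, a log2 ratio of -2.45. Its relative At1g16060 had 34.1 FPKM in VCA and 8.77 in EFS, after 23.8 in YA and before 3.74 and 7.16 in FBS and SFS, a log2 ratio of -1.95. ERF12 (At1g28360) had 14.6 FPKM in VCA, 5.72 in EFS and, outside this step, 22 in YA, 4.6 in FBS and 3.54 in SFS, a log2 ratio of -1.34. All 3 were higher in both buds than in EFS. The abundant members lay within 2-fold. RAP2-12 (At1g53910) had 183 FPKM in VCA and 164 in EFS, beside 229.8 in YA, 226 in FBS and 219 in SFS, a log2 ratio of -0.16. WIN1 (At1g15360), a regulator of wax, had 131 FPKM in VCA and 76.5 in EFS, after 131 in YA and before 14 and 3.86 in FBS and SFS, a log2 ratio of -0.78. RAP2-4 (At1g78080) had 80.2 FPKM in VCA, 60.3 in EFS and, outside this step, 33.8 in YA, 92.3 in FBS and 62.8 in SFS, a log2 ratio of -0.41. Of these WIN1 went on to a low level in SFS. In other families, homeobox factors had 8 falls and bHLH factors 10, among 23 and 38 loci and with 0 and 1 rises (falls at 34.8% and 26.3% against 17.0% of all loci), whereas none of the 16 NAC loci changed by 2-fold.

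YA and FBS share no library with VCA or EFS, so the same loci were compared there as a description. The stages follow each other, so these libraries are no replicate of the step itself. Between YA and FBS, 10.8% of all 8075 loci were 2-fold or more higher and 24.1% lower. Of the 677 loci that rose from VCA to EFS, 53.5% were 2-fold or more higher in FBS than in YA and 8.71% were lower. Of the 1369 that fell, 58.7% were lower and 3.87% higher. Both shares exceeded these backgrounds. For the loci that rose the share lay between 46.4% and 49.1% at a minimum sum of 1 and with the other 4 kinds of feature.

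**Figure D5:**
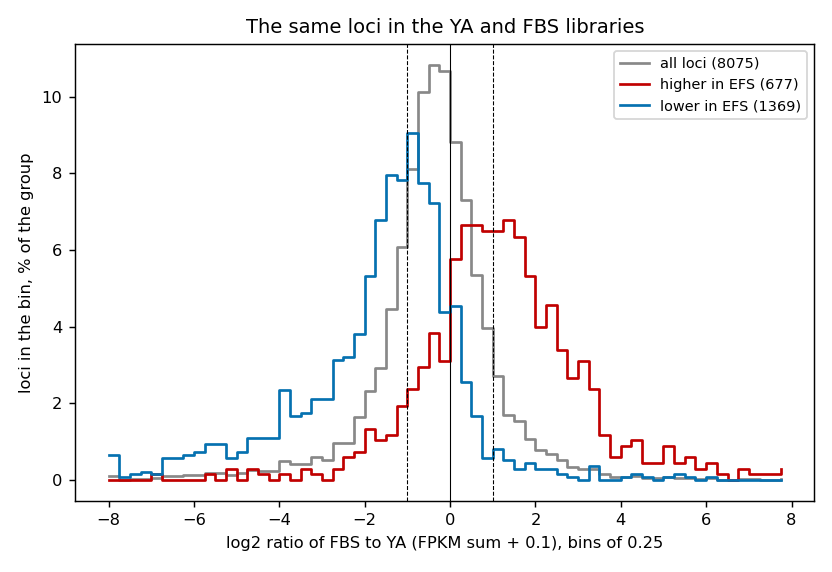
Distribution of the log2 ratio of FBS to YA (x axis, bins of 0.25, values beyond 8 placed at the ends) for all loci (grey), the loci that rose from VCA to EFS (red) and those that fell (blue), as the percentage of each group in a bin (y axis). The red curve lies to the right with a median of 1.15 and the blue curve to the left with a median of -1.28, against -0.32 for all loci.

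The lists differed in this respect. Of the 18 histone loci that fell, 17 also fell from YA to FBS, as did 13 of the 15 replication loci and 48 of the 59 ribosomal loci. Of the 25 pectin loci that rose, 16 were higher in FBS than in YA, and of the 9 late pollen loci 4. All 4 of the xyloglucan loci that rose were higher, but 2 of the 5 expansins and 1 of the 4 chlorophyll breakdown loci. Of all 677 loci that rose, 335 (49.5%) had their highest level of the 5 libraries in EFS, 190 in SFS and 121 in FBS. Of the 1369 that fell, 934 (68.2%) were highest in VCA and 331 (24.2%) in YA. Since the loci were picked by this step, peaks in EFS for rises and in VCA for falls were favoured by the choice. The same shares over all tested loci were not computed.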

How the data were processed

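RNA of floral organs of A. amurensis was sequenced as 1 library for each of 6 stages. The authors assembled the reads de novo with Trinity, clustered the contigs into unigenes, estimated levels with RSEM and deposited them as FPKM with annotations from Nr, Swiss-Prot, KEGG, KOG and GO. Versions of these tools: not given in the sources used here. Of 190353 unigenes, 68906 had an Arabidopsis locus at the start of the KOG match, and these held 70.1% of the FPKM in VCA and 67.8% in EFS. Another 170 unigenes matched organelle loci and were left out. A locus had a median of 5 unigenes, and the leading one held a median of 59.2% of the sum. A name is that of the best match of the leading unigene and not an identity.

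With 1 library a stage no test was made and no error between plants can be given. Reads were not recovered from FPKM, so depth per library is unknown, and the relative depth came from 17733 unigenes of low level. Loci named are the 12 largest rises and 12 largest falls among Swiss-Prot-named loci with 50 FPKM or more, the 5 highest of each library, the loci of the MADS-box primers, and in each list described the 3 most abundant members and up to 3 changes in each direction with 10 FPKM or more. At3g23390 and, in the closing observations, single unigenes were chosen after their values were seen. The 75 gene lists are searches of Swiss-Prot names. Members and lists were chosen with earlier results of these data known, and search terms were corrected after seeing which names they matched. Alternatives were other pseudocounts, minimum sums, scalings and features. Scripts used Python 3.11.15, pandas 2.3.3 and numpy 2.4.6 and were tested on simulated data. The library of flower bud differentiation was left out.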

Additional observations from a re-analysis of the deposited data

How the results depend on the processing

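With 1 library a stage, the limits are those of the sums and the scaling. No paired analysis was possible because each stage has 1 library, and none could be left out. Against 677 rises and 1369 falls, with the summed ribosomal proteins held equal 2702 loci rose and 291 fell, with a median log2 ratio of 0.70, and the medians were 2.02 for expansins, 2.21 for xyloglucan endotransglucosylases, 1.87 for pectin enzymes, 1.91 for chlorophyll breakdown, 1.41 for ethylene genes, -0.75 for histones and -0.46 for DNA replication genes. With the median ratio set to 1, 887 loci fell and the median was -0.05. At a minimum sum of 20, 691 of 5046 fell. By KEGG number 126 of 3585 features rose and 423 fell. By orthologous group and by assembly cluster, both chosen after seeing the data, 97 of 3335 and 1268 of 11057 rose and 459 and 2388 fell. The leading unigene alone gave a median of 1.86 for xyloglucan endotransglucosylases and 2.11 for At1g07660 (histone H4). With KOG matches at 1e-20 or less, At4g09710, named after the desiccation-related protein PCC13-62, gave 0.01. The share of rises also higher in FBS than in YA (53.5%) was 48.1% at a minimum sum of 1, 58.5% at 20, 74.6% with ribosomal proteins held equal (where 48.1% of all loci were higher), 46.9% by Swiss-Prot entry, 48.4% by KEGG number, 46.4% by orthologous group and 49.1% by cluster. The share of falls also lower (58.7%) was 52.2% with ribosomal proteins held equal, 62.1% by Swiss-Prot entry, 51.8% by KEGG number and 51.9% by orthologous group. The cause of these shifts was not tested.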

Other observations

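Unigenes with no Arabidopsis locus were outside the comparison. Of the 8271 with 5 FPKM or more in VCA or EFS, 2103 were 2-fold or more higher in EFS and 2863 lower, and 3109 had a match in neither Swiss-Prot nor Nr. Arabinogalactan peptide 23, whose Arabidopsis namesake is known from pollen, had 9.57 FPKM in VCA and 341 in EFS, with 0.97 in the younger bud YA, 15.8 at full bloom and 166 in senescing flowers. The LURP-one-related protein 15 had 0.23 and 256 FPKM in VCA and EFS, with 1.43, 105 and 8.08 in the other libraries in stage order. The late embryogenesis abundant protein Lea5 had 22.9 FPKM in VCA and 295 in EFS, was listed at 0 in the younger bud, and had 0.52 at full bloom and 277 in senescing flowers. These 3 unigenes were highest in EFS, and the last alternated between libraries.

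Unigenes of 1 assembly cluster could move in opposite directions. For defensin-like protein 4, a small antimicrobial protein, the unigene CL10454.Contig2 had 2.58 FPKM in VCA and 1372 in EFS, and CL10454.Contig3 had 209 in VCA and was listed at 0 in EFS. For polyubiquitin 10, CL919.Contig28 had 270.2 FPKM in VCA and 21.3 in EFS, and CL919.Contig29 had 10.6 and 287. How reads were divided between these unigenes was not tested.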
